A study of Arabidopsis thaliana with 4 samples.

Results

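The 33 xyloglucan endotransglucosylase/hydrolase genes of Arabidopsis thaliana, XTH1 to XTH33, were followed in the cells on the 2 sides of the floral organ abscission zone. Within the family the members were taken by locus identifier, without regard to any measured value, and all 33 were among the 33602 genes counted. The family itself was chosen with earlier results of these data known. RNA-seq counts per gene were compared between 2 libraries of residuum cells (RECs), which stay on the receptacle when an organ is shed, and 2 libraries of secession cells (SECs), which leave with it. The plants behind all 4 libraries were ebp1 mutants of the Col-0 accession that carried a nuclear GFP and GUS reporter under the QRT2 promoter (proQRT2::nlsGFP-GUS) and were kept at 22°C under days of 16 h light and 8 h dark. The cells were released as protoplasts and sorted by the GFP signal, so what was sampled is limited to cells in which that promoter was active. The ebp1 mutation is named in the sample titles and the series description but not in the genotype labels, and those labels number the reporter promoter QRT2, QRT3, QRT4 and QRT5 in turn where the series description gives QRT2. No wild-type library is analysed here, so the values describe 2 kinds of cell within the mutant and not the effect of the mutation. The labels do not say whether replicates are separate plants, sorts or only libraries, and a p-value here therefore reflects the spread of the samples at hand, which may be technical.

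XTH enzymes act on xyloglucan, the hemicellulose that lies between and binds cellulose microfibrils in the primary wall of most flowering plants. The endotransglucosylase reaction cuts a xyloglucan chain and joins the new end to another chain, and the hydrolase reaction cuts it and passes the end to water. The family is divided by sequence into class I, class II and class III-B, whose studied members are transglucosylases, and class III-A (XTH31 and XTH32), whose members are known mainly as hydrolases. XTH genes have been studied in elongating roots and stems, in vascular tissue, in wound healing and touch responses, and, in rose, in the shedding of petals.

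The sequence that the family shares is the stretch of coding DNA around its catalytic site, in which codons for glutamate, aspartate and glutamate alternate with other codons. A search of the RefSeq coding sequences (TAIR10.1) for that pattern, followed after the last glutamate by a phenylalanine or leucine codon and a leucine codon, found 1 match in 32 of the 33 members and 0 in XTH11. Each match lies within 1 coding exon. The members on which the results below turn are shown over 30 bases, 5′ to 3′ on the coding strand, with the 3 acidic codons in capitals.
XTH6 at chr5:26299613-26299642, plus strand: agagacGAGctaGATtttGAGttcttggga
XTH7 at chr4:17776854-17776883, minus strand: cgagacGAGcttGATtttGAGttcttagga
XTH23 at chr4:13129069-13129098, plus strand: tgggacGAGattGACtttGAGttcttggga
XTH24 at chr4:14820042-14820071, minus strand: tgggatGAGattGATtttGAGttcttgggt
XTH18 at chr4:14826569-14826598, minus strand: tgggatGAGattGATttcGAGttcttagga
XTH30 at chr1:11576257-11576286, plus strand: cacgacGAGttaGACataGAGtttctaggg
XTH33 at chr1:3480306-3480335, minus strand: cacgacGAGataGACataGAAttgttgggt
XTH7 differs from XTH6 at 3 of the 30 bases and is the only other member whose stretch encodes the same residues as that of XTH6. XTH23 and XTH24 differ from XTH6 at 5 and 6 bases, XTH18 at 7, XTH33 at 10 and XTH30 at 11.

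Depth came to between 12191718 and 16102115 counts in genes per library, and levels are given as normalised read counts in counts-per-million (CPM) after TMM scaling. At that depth a count of 0 allows up to 0.192 to 0.235 CPM on that scale. The REC libraries resembled each other more than the SEC libraries did, the chi-square of their counts being 4.92 times its degrees of freedom in the former pair and 63.9 times in the latter. The median log2 ratio between the SEC libraries (replicate 1 over replicate 2) ran from 0.72 over genes with transcripts under 1000 nt to −0.96 over those above 3000 nt (genes with a mean log2 CPM over 2), and the same ratio of the REC pair stayed between −0.05 and 0.07. XTH transcripts run from 885 to 1922 nt, so each result is given with the SEC libraries apart. QRT2, which encodes a polygalacturonase and lends its promoter to the reporter, was at 492 and 568 CPM in the REC pair and 458 and 694 CPM in the SEC pair. The abscission receptor gene HAE was at 439 and 459 CPM in the REC pair and 160 and 355 CPM in the SEC pair, so QRT2 and HAE were well detected on each side. IDA, for the peptide ligand of that receptor, was at 0.471 and 0.867 CPM in the REC pair and 32.5 and 13.9 CPM in the SEC pair, and the polygalacturonase gene ADPG2 was at 22.7 and 21.9 CPM and 147 and 171 CPM. The 6 zone markers listed had means from 0.604 to 553 CPM over the 4 libraries. All 6 were tested by edgeR, and 2 were called higher in SECs and 0 higher in RECs. Over all genes tested, 2.18% and 0.495% were called in these directions. Of 16 markers of other cell types, 6 had no count in any library (XCP2 of xylem, APL of phloem, MS1 of tapetum, CRC and SWEET9 of nectary and FAMA of guard cells). The xylem markers summed to 2.80 to 5.80 CPM in the REC pair and 49.1 to 82.8 CPM in the SEC pair, nearly all from MC9, a metacaspase gene at 48.6 and 80.8 CPM in the SEC pair. The epidermis markers summed to 15.2 to 15.3 CPM in the REC pair and 30.9 to 38.9 CPM in the SEC pair. PDF2 carried that sum, at 30.1 and 31.5 CPM in the SEC pair, while ATML1 and PDF1 had log2 fold changes of 0.29 and 1.58 and were not called. The phloem markers summed to 9.26 to 9.33 CPM and 0.513 to 3.32 CPM, and the pollen and tapetum markers to 0.267 to 1.41 CPM and 0.54 to 2.82 CPM. Of the 16, 7 were tested, 2 were called higher in SECs (MC9, adjusted p = 0.0341, and PDF2 of epidermis, adjusted p = 0.0431, by edgeR) and 0 higher in RECs. The shares over all genes tested were 2.18% higher in SECs and 0.495% higher in RECs. The nectary markers were at 0 in every library, and the guard and myrosin cell markers had 0 to 0.549 CPM in the REC pair and 0 in SECs. In a bulk sample fewer cells of a type and less RNA per cell cannot be told apart, and the part of these cell types in the XTH values was not tested.

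As a whole the family took a small share of the RNA on both sides, with more class I in each REC library and more class II in each SEC library. The 33 genes summed to 588 and 588 CPM in the REC pair and to 849 and 599 CPM in the SEC pair. That is 0.0615% of the counts in REC replicate 1 (exact 95% binomial interval 0.0601 to 0.0629%) and 0.0615% in REC replicate 2 (0.0602 to 0.0628%), against 0.0802% in SEC replicate 1 (0.0787 to 0.0817%) and 0.058% in SEC replicate 2 (0.0568 to 0.0592%). The mean was 588 ± 0.424 CPM in the REC pair and 724 ± 177 CPM in the SEC pair (SD, n = 2). SEC replicate 1 alone stood above the RECs, and SEC replicate 2 was close to them.
The 11 class I genes made up 27.9% and 28.0% of the summed XTH level in RECs and 7.21% and 18.0% in SECs. In CPM they summed to 164 and 164 in RECs and to 61.2 and 108 in SECs, so both REC libraries were higher. The 15 class II genes made up 54.9% and 53.6% of the summed level in RECs and 76.3% and 64.4% in SECs. They summed to 323 and 315 CPM in the REC pair and 648 and 386 CPM in the SEC pair. Both SEC libraries were above both REC libraries, but the excess of SEC replicate 2 was much smaller than that of SEC replicate 1. The 5 class III-B genes summed to 99.3 and 108 CPM in the REC pair and 140 and 105 CPM in the SEC pair, and the groups overlapped. Class III-A, the hydrolases, was nearly silent, with 1.57 and 0.8 CPM in the REC pair and 0 and 0.641 CPM in the SEC pair. No test was run on these sums.

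**Figure D1:**
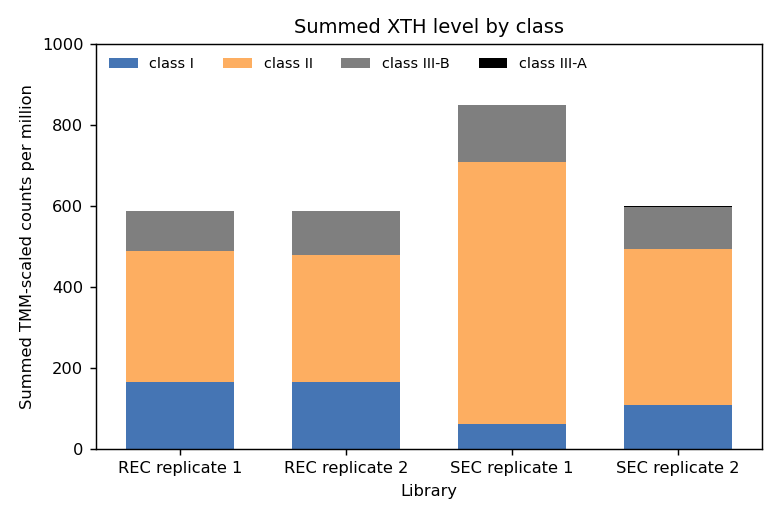
Summed XTH level (TMM-scaled CPM, vertical axis) in each of the 4 libraries, with the contribution of each class as a segment of the bar. The class I segment is 164 CPM in each REC bar, 61.2 CPM for SEC replicate 1 and 108 CPM for SEC replicate 2, and the class II segment is largest in SEC replicate 1 at 648 CPM.

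The family was represented by few genes. Of the 33 members, 5 had no count in any library (XTH1, XTH2, XTH13, XTH20 and XTH26), 9 more had counts that were too low, or in too few libraries, to pass the filter on low counts, and 19 were tested. In a given library 9 to 11 members reached 10 CPM, and the 4 highest members held 58.9% and 59.5% of the summed level in RECs and 65.2% and 57.3% in SECs. Per kilobase of transcript, the scale on which genes can be set against each other, the order in RECs was led by XTH18, at 93.2 and 87.4 CPM per kilobase, followed by XTH4 at 64.5 and 68.2 and XTH24 at 53.9 and 51.4. XTH28, XTH19, XTH22 and XTH23 came next, then XTH6, XTH27, XTH7, XTH9 and XTH11. Among these 12, the lower REC value of each was above the higher REC value of the next, except that the values of XTH6 and XTH27 overlapped. In SECs XTH24 led, at 154 and 91.3 CPM per kilobase, above XTH18 at 86.8 and 63.8 in both libraries. After XTH18 came XTH22, XTH23, XTH19, XTH28, XTH4 and XTH27, and from XTH18 down to XTH27 each neighbour overlapped with the next, so their order in SECs is not resolved.

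**Figure D2:**
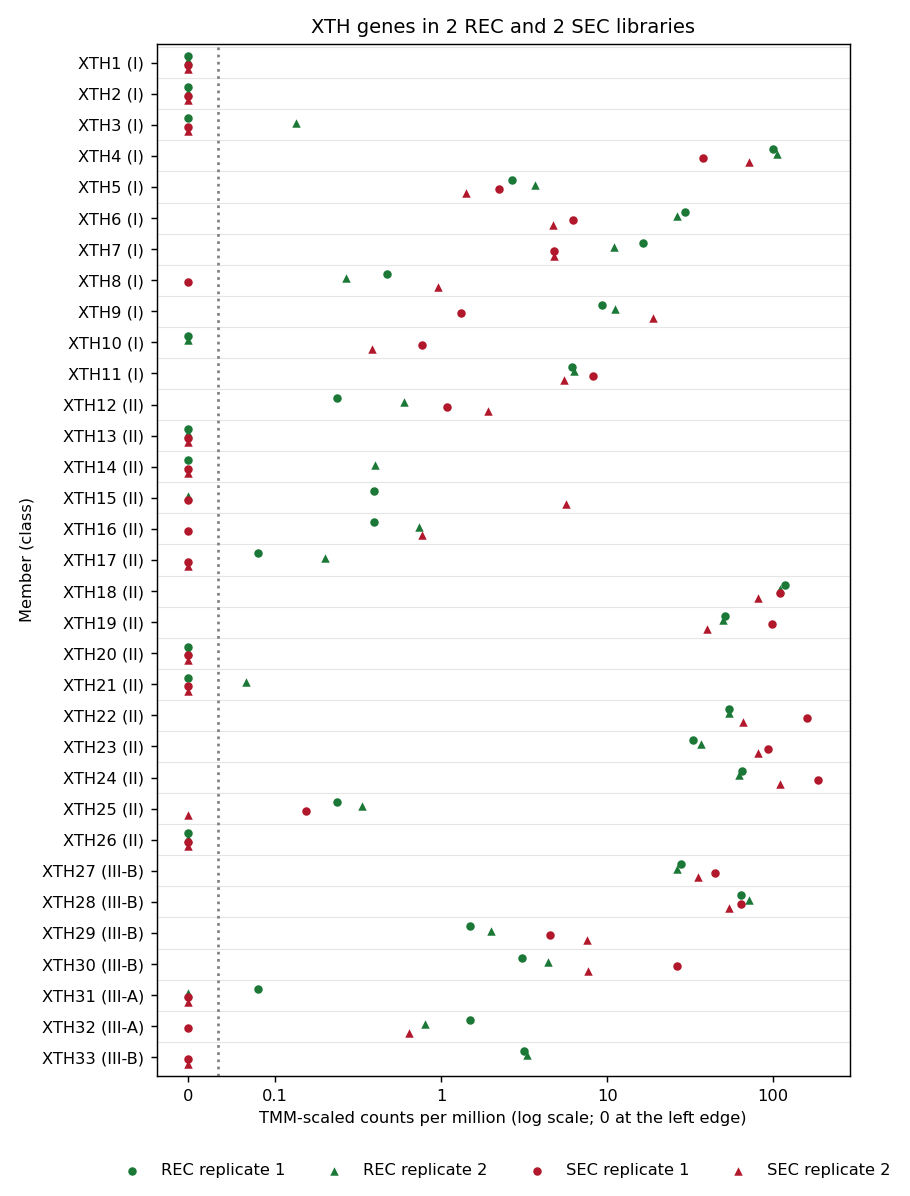
Normalised read count (TMM-scaled CPM, horizontal axis, log scale, with 0 to the left of the dotted line) of each of the 33 XTH genes in 2 REC libraries (green) and 2 SEC libraries (red); circles are replicate 1, triangles replicate 2, and the class stands in brackets. XTH6 and XTH7 lie higher in both REC libraries, XTH23 and XTH24 higher in both SEC libraries, and XTH9 is spread widely between the SEC libraries, at 1.31 and 18.9 CPM.

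One member passed the test of RECs against SECs. XTH6, of class I, was higher in RECs, and 0 of the 19 tested members were called higher in SECs by edgeR's quasi-likelihood test at an adjusted p under 0.05. Over all 18384 genes tested, 0.495% were called higher in RECs and 2.18% higher in SECs, 2.67% in all. At an unadjusted p under 0.05 the members counted 4 higher in RECs and 4 higher in SECs, against 9.46% and 14.1% of all genes, and DESeq2 called 3 of 21 members it tested in each direction, against 3.64% and 7.64% of 19640 genes. Both REC libraries lay above both SEC libraries in 7 of the 19 tested members, and both SEC libraries lay above in 7, against 29.8% and 28.2% of all genes tested. The median log2 fold change of the tested members, REC minus SEC, was 0.02, and that of all genes tested was 0.02. These are counts over the members that passed the filter on low counts, which a gene can pass through 1 group alone.

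**Figure D3:**
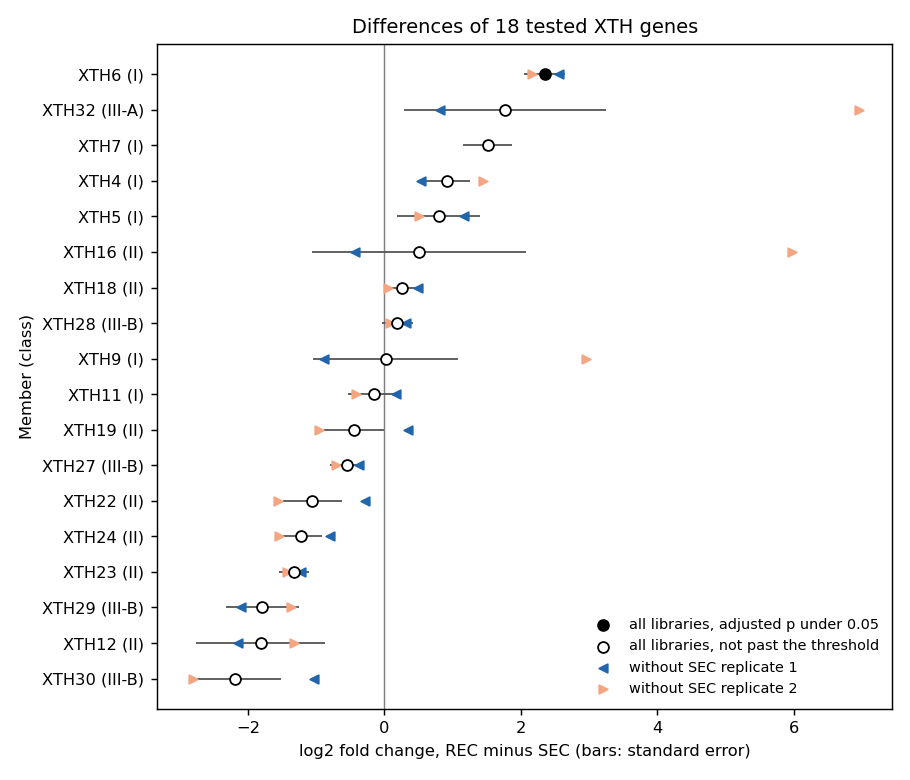
Log2 fold change, REC minus SEC, of 18 tested XTH genes with its standard error (circles and bars), and the values with SEC replicate 1 left out (blue) or SEC replicate 2 left out (orange). XTH6, filled, is past the threshold at 2.35. XTH33, also tested, is not drawn: it had 0 counts in both SEC libraries, so its fitted value of 8.50 has no counted SEC level behind it. XTH9 moves from −0.88 to 2.96 with the SEC library used.

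Class I held the one member that passed the test. XTH6 (AT5G65730, chromosome 5) was at 29.5 and 26.5 CPM in the REC pair and 6.25 and 4.75 CPM in the SEC pair, from 376, 397, 81 and 74 counts. Both REC libraries were far above both SEC libraries, and each pair was tight. Its mean was 28.0 ± 2.14 CPM in RECs and 5.50 ± 1.06 CPM in the SEC pair (SD, n = 2), 5.09-fold higher in RECs (log2 fold change 2.35, SE 0.30, edgeR adjusted p = 0.0355). With REC replicate 1 left out it missed the threshold (2.29, adjusted p = 0.171), as it did with REC replicate 2 left out (2.42, adjusted p = 0.0853), though the size hardly moved, and DESeq2 gave 2.35 with an adjusted p of 1.88e-06.
XTH7 (AT4G37800), the member whose catalytic stretch encodes the same residues, is described next although its mean of 9.25 CPM is under the limit of 10 CPM for named members; it was chosen after its values were seen. It was at 16.4 and 11.0 CPM in the REC pair and 4.78 and 4.81 CPM in the SEC pair. The groups did not overlap, and the log2 fold change of 1.51 (SE 0.36) did not pass the threshold in edgeR (adjusted p = 0.0864) but did in DESeq2 (adjusted p = 0.0393).
XTH4 (AT2G06850), which together with XTH9 has been studied in the woody growth of stems, was the most abundant class I member, at 99.9 and 105 CPM in the REC pair and 37.6 and 71.0 CPM in the SEC pair. Both REC libraries were higher, and the SEC libraries differed from each other by more than SEC replicate 2 did from either REC library on the log2 scale. Its log2 fold change of 0.92 (SE 0.34, edgeR adjusted p = 0.189) was 0.53 on leaving out SEC replicate 1 and 1.45 on leaving out SEC replicate 2.
XTH9 (AT4G03210) was at 9.33 and 11.1 CPM in the REC pair, 1.31 CPM in SEC replicate 1 and 18.9 CPM in SEC replicate 2. One SEC library was below both REC libraries and the other above them. The log2 fold change of 0.02 (SE 1.06, edgeR adjusted p = 0.995) became −0.88 on leaving out SEC replicate 1 and 2.96 on leaving out SEC replicate 2, so these data give no direction for XTH9. XTH5 and XTH11, the other tested class I members, were between 1.41 and 8.25 CPM in every library, with log2 fold changes of 0.80 and −0.15 that did not pass the threshold. Over the 6 tested class I members the median log2 fold change was 0.86, against 0.02 over all genes tested. Both REC libraries were above both SEC libraries in 4 of them and below in 0, against 29.8% and 28.2% of all genes tested.

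Of 250 bases before the annotated start of XTH6, shown because this gene carries the one call, the sequence from RefSeq is as follows, with capitals for the auxin response element letters TGTCTC on the other strand.
XTH6 at chr5:26298478-26298727, plus strand: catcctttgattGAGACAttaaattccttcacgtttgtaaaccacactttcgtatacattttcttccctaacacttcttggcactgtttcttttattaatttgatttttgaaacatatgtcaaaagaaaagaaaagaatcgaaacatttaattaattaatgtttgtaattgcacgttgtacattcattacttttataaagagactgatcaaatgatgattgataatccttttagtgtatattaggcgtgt
The letter search covered 300 bases, from 250 before to 50 after the start, on both strands. The letters TGTCTC were in 3 of 33 members (XTH3, XTH6 and XTH21) and in 14.2% of 27443 windows of protein-coding genes. The W-box letters TTGACC or TTGACT were in 8 members and 32.4% of all windows, the letters CGTGNG in 5 members and 15.2%, the G-box CACGTG in 0 members and 7.7%, and the GCC box GCCGCC in 0 members and 2.6%. A match of letters is a description of the sequence and not a binding site.

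Class II held the most abundant members, and none of its 7 tested genes passed the threshold. Both SEC libraries were above both REC libraries in 4 of the 7 and below in 1, against 28.2% and 29.8% of all genes tested. XTH23 (AT4G25810) came closest. It was at 33.0 and 36.5 CPM in the REC pair and 93.3 and 81.0 CPM in the SEC pair. The groups were far apart relative to the spread within each, with means of 34.8 ± 2.48 and 87.2 ± 8.69 CPM (SD, n = 2). It was 2.51-fold higher in SECs (log2 fold change −1.33, SE 0.22), with an adjusted p of 0.0518 in edgeR and 0.00027 in DESeq2, and the log2 fold change stayed between −1.42 and −1.22 under all alternatives run.
XTH24 (AT4G30270), first known as the meristem gene MERI5, was at 65.2 and 62.1 CPM in the REC pair and 186 and 110 CPM in the SEC pair. Both SEC libraries were higher, SEC replicate 1 by more. The log2 fold change was −1.22 (SE 0.30, edgeR adjusted p = 0.0911, DESeq2 adjusted p = 0.00507), and it was −0.80 on leaving out SEC replicate 1 and −1.55 on leaving out SEC replicate 2.
XTH22 (AT5G57560), the touch-induced gene TCH4, was at 54.5 and 53.9 CPM in the REC pair and 160 and 65.7 CPM in the SEC pair. Most of the difference lay in SEC replicate 1. The log2 fold change of −1.06 (SE 0.44, edgeR adjusted p = 0.227) was −0.28 on leaving out SEC replicate 1 and −1.56 on leaving out SEC replicate 2.
XTH18 (AT4G30280), studied mainly in roots, was at 118 and 110 CPM in the REC pair and 110 and 80.6 CPM in the SEC pair. SEC replicate 1 fell just short of the lower REC library, and the log2 fold change was 0.26 (SE 0.23, edgeR adjusted p = 0.551). XTH19 (AT4G30290), known for its part in rejoining cut stems, was at 51.4 and 49.5 CPM in the REC pair and 97.9 and 39.7 CPM in the SEC pair. The SEC libraries lay on either side of the RECs, and its log2 fold change of −0.45 (SE 0.44, edgeR adjusted p = 0.597) turned to 0.34 without SEC replicate 1.
The other 2 tested class II members, XTH12 and XTH16, were at 0 to 1.92 CPM. XTH15, not tested, had 5 and 0 counts in the REC pair and 0 and 88 in SECs. It is the one member that overlaps another annotated gene, AT4G14120 on the opposite strand, whose span covers 382 nt of its exons. Whether exons of that gene lie in this stretch was not checked. That gene had 17 and 42 counts in the REC pair and 0 and 30 in SECs. The kit does not mark strand, so reads of any exonic stretch that both share cannot be told apart.

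Some ratios of one member to another, which follow from the values above, differed between the sides. Per kilobase, XTH24 stood at 0.578 and 0.588 of XTH18 in RECs and at 1.77 and 1.43 times XTH18 in SECs. XTH23 stood at 1.20 and 1.48 times XTH6 in RECs and at 16.0 and 18.3 times XTH6 in SECs. In both pairs of genes the ratios of the 2 libraries of a group were closer to each other than to those of the other group. The same held for XTH24 over XTH6. It did not hold for XTH18 over XTH19, at 2.42 and 2.36 in RECs and 1.18 and 2.15 in SECs. For XTH24 over XTH19, at 1.40 and 1.38 in RECs and 2.10 and 3.07 in SECs, it depended on the direction of the ratio. It held only for the inverse, at 0.71 and 0.72 in RECs and 0.48 and 0.33 in SECs. These pairs were chosen after their values were seen and no test was run on the ratios.

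Several class II members lie beside each other in the genome, and in most of these groups neighbours were at very different levels. XTH24, XTH18 and XTH19 stand in that order on chromosome 4 with no coding gene between them, on the same strand. All 3 were abundant, at 29.7 to 154 CPM per kilobase, while only XTH24 had both SEC libraries above both REC libraries. XTH12, XTH13, XTH25 and XTH22 lie close together on chromosome 5, again on the same strand, with 1 coding gene between XTH12 and XTH13. XTH22 was at 33.9 to 100.5 CPM per kilobase there, XTH12 and XTH25 were between 0 and 1.68, and XTH13 had no count although its coding sequence is 89.4% identical to that of XTH12. On chromosome 4 XTH23 was at 24.1 to 68.0 CPM per kilobase beside XTH14, with 6 counts in REC replicate 2 and 0 elsewhere. The neighbours XTH1 and XTH2 had no count. XTH18 and XTH19 are 87.6% identical in coding sequence, and whether reads of such similar members could be told apart was not tested.

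**Figure D4:**
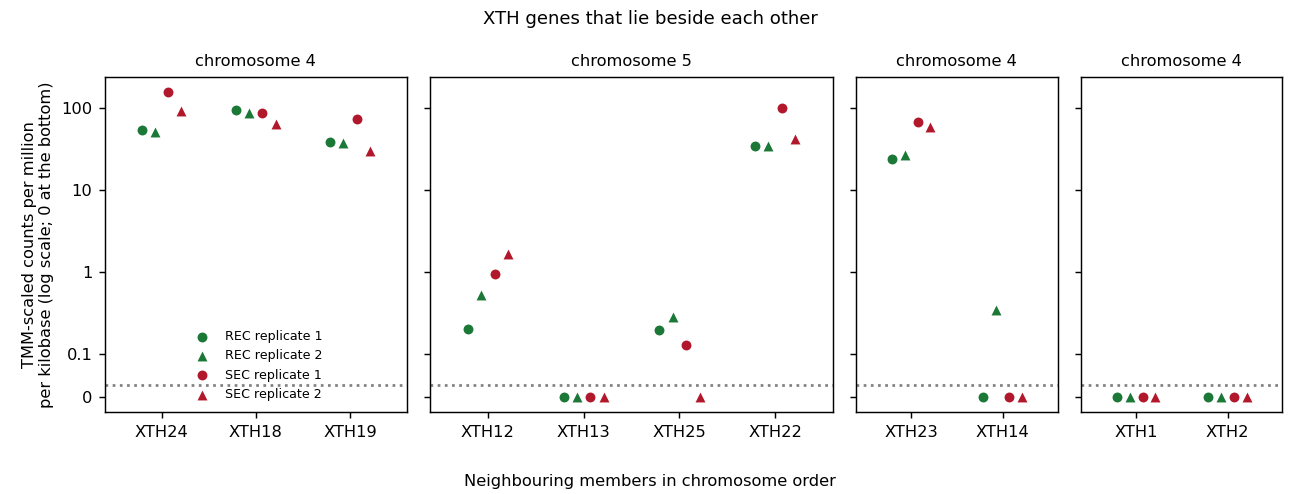
Normalised read count (TMM-scaled CPM per kilobase of transcript, vertical axis, log scale, with 0 below the dotted line) of the XTH genes that lie beside each other, 1 panel per group in chromosome order; green is REC, red is SEC, circles are replicate 1 and triangles replicate 2. XTH24, XTH18 and XTH19 are all abundant, while XTH22 and XTH23 stand beside members at or near 0.

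A like contrast was found between XTH18 and XTH17 (AT1G65310, chromosome 1), which are 85.6% identical in coding sequence. XTH17 had 1 and 3 counts in the REC pair and 0 and 0 in SECs, where XTH18 had 1501 and 1656 counts in the REC pair and 1422 and 1257 in SECs. The 250 bases before their annotated starts, from RefSeq, end in the same 73 bases, shown in capitals.
XTH17 at chr1:24256804-24257053, plus strand: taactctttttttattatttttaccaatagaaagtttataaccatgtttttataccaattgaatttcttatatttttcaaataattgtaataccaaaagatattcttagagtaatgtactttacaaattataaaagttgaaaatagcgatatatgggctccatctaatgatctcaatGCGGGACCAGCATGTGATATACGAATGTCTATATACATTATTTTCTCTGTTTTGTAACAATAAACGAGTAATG
XTH18 at chr4:14827212-14827461, minus strand: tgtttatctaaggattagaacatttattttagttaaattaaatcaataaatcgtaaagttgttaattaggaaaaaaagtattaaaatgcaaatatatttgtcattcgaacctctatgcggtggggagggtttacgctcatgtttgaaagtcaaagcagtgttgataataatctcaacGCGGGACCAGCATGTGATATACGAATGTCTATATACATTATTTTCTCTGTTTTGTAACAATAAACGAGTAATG
Over the 528 pairs of members, the next longest shared run in these windows was 14 bases, between XTH25 and XTH30. Summed over the REC libraries, XTH17 had 4 counts and XTH18 had 3157. This pair was chosen after its values were seen.

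Class III-B held members of each pattern. XTH28 (AT1G14720), needed in stamen filaments for self-pollination, was at 63.6 and 71.7 CPM in the REC pair and 64.2 and 54.3 CPM in the SEC pair. The groups overlapped, and the log2 fold change was 0.19 (SE 0.22, edgeR adjusted p = 0.653). XTH27 (AT2G01850), studied in the vessels of leaf veins, was at 28.0 and 26.4 CPM in the REC pair and 44.5 and 35.1 CPM in the SEC pair. Both SEC libraries were higher, by a log2 fold change of −0.55 (SE 0.24) that did not pass the threshold (edgeR adjusted p = 0.255).
XTH30 (AT1G32170) had the most negative log2 fold change of the tested members, −2.18 (SE 0.66, edgeR adjusted p = 0.13, DESeq2 adjusted p = 0.0152). It was at 3.06 and 4.40 CPM in the REC pair and 26.4 and 7.63 CPM in the SEC pair. Both SEC libraries were higher but lay far apart from each other, and the log2 fold change was −1.03 on leaving out SEC replicate 1 and −2.81 on leaving out SEC replicate 2. XTH29 (AT4G18990), below the 10 CPM limit and chosen after its values were seen, was at 1.49 and 2.00 CPM in the REC pair and 4.55 and 7.57 CPM in the SEC pair (log2 fold change −1.79, SE 0.53, edgeR adjusted p = 0.125).
XTH33 (AT1G10550), which unlike most members is predicted to stay anchored in the plasma membrane, was counted in RECs only. It had 40 and 49 counts in the REC pair, or 3.14 and 3.27 CPM, and 0 counts in both SEC libraries. Against a floor of 3 counts over the SEC group it was at least 30.5-fold higher in RECs. It missed the threshold in edgeR (adjusted p = 0.0567) and passed it in DESeq2 (adjusted p = 0.000514). The reverse was seen for XTH10 (AT2G14620) of class I, which was not tested, with 0 and 0 counts in the REC pair and 10 and 6 in SECs, at least 5.35-fold higher in SECs by the same floor. Both were chosen after their values were seen.
Of the class III-A hydrolase genes, XTH31 had 1 count in REC replicate 1 and 0 elsewhere, and XTH32 had 19 and 12 counts in the REC pair and 0 and 10 in SECs. The remaining low members were XTH3, XTH8, XTH14, XTH21 and XTH25, each with 15 counts or fewer in every library.

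Genes that build and trim xyloglucan were next set beside the family. The list has 20 genes, among them the CSLC backbone synthases, the XXT xylosyltransferases, the galactosyltransferases MUR3 and XLT2, the fucosyltransferase MUR2 and the apoplastic enzymes XYL1, AXY8 and BGAL10, and 2 loci to which the reference gives no symbol (AT5G20950 and AT5G04885). Of its 18 tested genes 0 passed the threshold in either direction by edgeR. At an unadjusted p under 0.05, 8 were higher in RECs and 0 higher in SECs, against 9.46% and 14.1% of all genes. Their median log2 fold change was 0.75, against 0.02 over all genes, and 17 of 18 were positive. Both REC libraries were above both SEC libraries in 15 and below in 1, against 29.8% and 28.2% of all genes. The genes summed to 1369 and 1412 CPM in the REC pair and 703 and 906 CPM in the SEC pair.
The smallest adjusted p was that of XYL1, an alpha-xylosidase gene, at 385 and 364 CPM in the REC pair and 163 and 205 CPM in the SEC pair (log2 fold change 1.03, SE 0.20, edgeR adjusted p = 0.0614). The xylosyltransferase gene XXT1 was the one with a negative value, at 21.6 and 22.0 CPM in the REC pair and 35.2 and 28.7 CPM in the SEC pair (log2 fold change −0.55, SE 0.25, adjusted p = 0.253). Both are named after their values were seen.
Of the 9 cellulose synthase genes 8 were tested and 0 passed in either direction by edgeR, with 1 higher in RECs and 0 higher in SECs at an unadjusted p under 0.05 (9.46% and 14.1% of all genes). DESeq2 called 5 of 19 xyloglucan genes and 1 of 9 cellulose synthase genes higher in RECs and 0 of either higher in SECs, against 3.64% and 7.64% of all genes. The cellulose synthases summed to 1298 and 1326 CPM in the REC pair and 518 and 1377 CPM in the SEC pair. Their sum was low in SEC replicate 1 alone, where their median log2 ratio to SEC replicate 2 was −1.39. Their transcripts run from 3347 to 4247 nt, and that median was −0.96 over all genes above 3000 nt with a mean log2 CPM over 2.

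Because XTH22 is a touch gene and the cells were handled as protoplasts, 10 genes known to respond to touch, wounding or stress signals were also read. Of these 10, all tested, 1 was called higher in SECs and 0 higher in RECs, against 2.18% and 0.495% of all genes. WRKY33, a transcription factor gene of the defence response, was at 320 and 369 CPM in the REC pair and 712 and 678 CPM in the SEC pair (log2 fold change −1.01, SE 0.17, edgeR adjusted p = 0.0499). The log2 fold changes of the list ran from −1.25 to 0.72 with a median of −0.76, against 0.02 over all genes, and both SEC libraries were above both REC libraries in 6 genes and below in 2, against 28.2% and 29.8% of all genes. Its genes summed to 2051 and 2049 CPM in the REC pair and 3460 and 2788 CPM in the SEC pair, so SECs were higher and SEC replicate 1 the highest, as for XTH22 and XTH24. The 3 touch genes for calmodulin and its relatives had different patterns. CAM2 was at 71.8 and 69.5 CPM in the REC pair and 197 and 84.7 CPM in the SEC pair, TCH3 at 426 and 467 and at 882 and 615 CPM, and TCH2 at 168 and 158 and at 172 and 93.4 CPM. The part of this response in the XTH values was not tested.

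**Figure D5:**
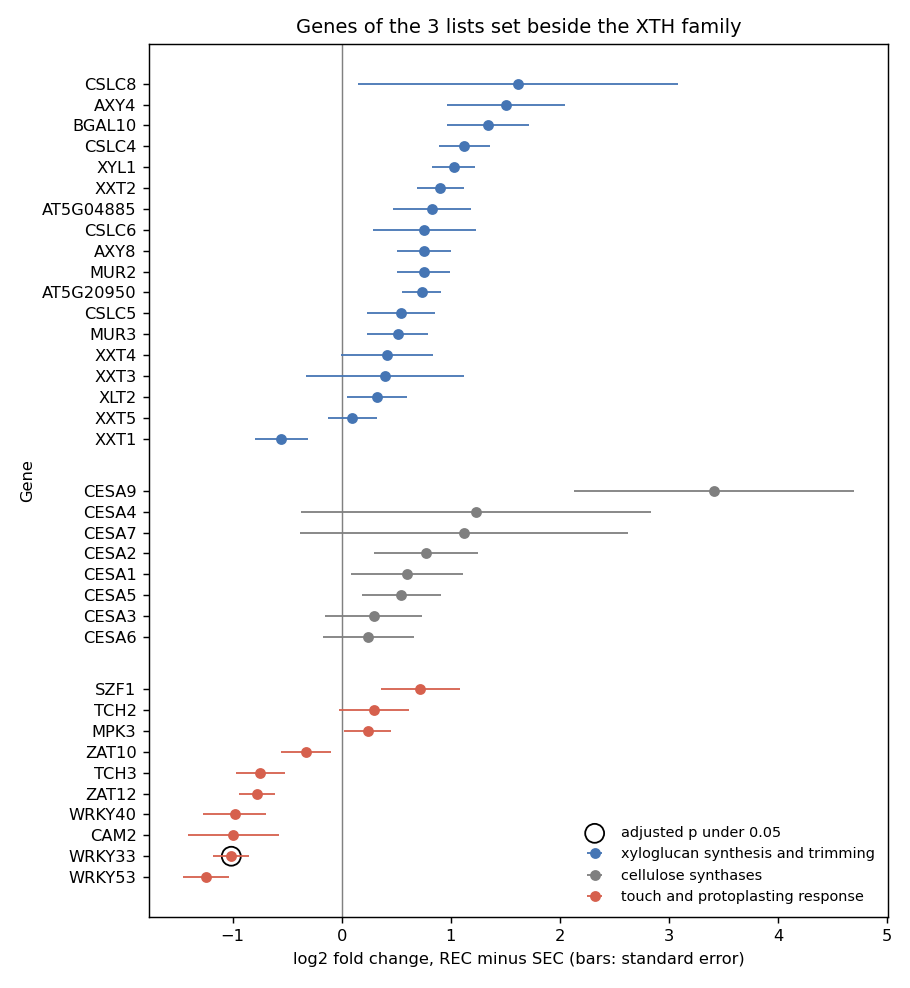
Log2 fold change, REC minus SEC, with its standard error, of each tested gene on the lists of xyloglucan synthesis and trimming (blue), cellulose synthases (grey) and touch and protoplasting response (red). The xyloglucan genes lie to the right of 0 except XXT1, most touch genes lie to the left, and WRKY33, circled, is the 1 gene with an adjusted p under 0.05.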

How the data were processed

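PolyA RNA of sorted protoplasts was copied to cDNA with SMART-Seq v4 (18 amplification cycles) and made into libraries with the unstranded TruSeq v2 kit, per the labels' protocols. Each library has 1 deposited file of raw counts per gene. The submitters' processing notes name HTSeq 0.6.1, TopHat2 2.0.9, Trimmomatic 0.32.3 and DESeq2 among the tools, and TAIR10 as the build. Which annotation was counted, and with which strand setting, is not given in the sources used here. Each file's 5 summary lines were left out; records in no gene made up 46.8 to 47.7% of all records, records with several alignments 5.64 to 7.48% and ambiguous ones 0.37 to 0.44%. Reads without molecular identifiers are not independent molecules, so the floor of 3 counts and the intervals cover only counting error.

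The sample titles gave groups and replicate numbers. Neither the REC pair nor the SEC pair agreed within sampling noise. Counts of all genes were tested, REC minus SEC, on group alone, with edgeR 4.0.16 in R 4.3.3 (TMM, filterByExpr, quasi-likelihood F test, two-sided), with Benjamini-Hochberg adjustment over 18384 genes with a threshold of 0.05. Standard errors were derived as the absolute log2 fold change over the square root of F. The steps were tested on simulated data. Alternatives were DESeq2 1.42.0, its size factors, no filter, removal of each library's transcript length trend, the replicate number as a block, and each library left out. Lengths, overlaps and sequences came from RefSeq (TAIR10.1), matched by locus identifier for all 33 members; the files hold no coordinates.

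Values in every library are given for members past the threshold, with a mean of at least 10 CPM or among the 3 highest per kilobase, and the text says where another gene was added. The family, lists and markers were chosen with earlier results of these data known, while within the family all 33 members were taken.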

Additional observations from a re-analysis of the deposited data

How the results depend on the processing

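XTH6 was higher in RECs under all 9 alternatives run on it, with log2 fold changes from 2.16 to 2.55, and lost its call without either REC library. The number of members higher in RECs, 1 in the main test, was 3 by DESeq2 (XTH6, XTH7 and XTH33), 2 with no filter on low counts, 3 with the length trend removed, and 0 to 6 with 1 library left out. The number higher in SECs, 0 in the main test, was 3 by DESeq2 (XTH23, XTH24 and XTH30), 1 with no filter (XTH23), 2 with the length trend removed, and 0 to 7 with 1 library left out. Leaving out either SEC library raised the number of members called in both directions, as it did over all genes, and leaving out either REC library raised it in neither. The remaining pair then sets the spread, and the lone library is assumed to vary like it. Calls over all genes under these settings are given below. Of the xyloglucan and cellulose genes, 0 in the main test, 6 were higher in RECs by DESeq2, 1 with no filter, 5 with the length trend removed and 0 to 19 with 1 library left out, and 0 to 2 were higher in SECs with 1 left out. DESeq2's size factors changed none of these counts.

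The signs that turned were those of XTH9, at −0.0092 with the length trend removed, −0.12 without REC replicate 2, and −0.88 and 2.96 on leaving out SEC replicate 1 and 2 in turn (adjusted p = 0.00963 and 3.39e-05 by edgeR), and those of XTH11 (0.17 and −0.41), XTH16 (−0.43 and 5.97, the latter against 0 counts) and XTH19 (0.34 and −0.96) without the same libraries. None of these 4 genes was called in the main test. The mean summed level in RECs, 588.1 CPM, was 615.1 without TMM scaling, 587.6 with DESeq2's size factors and 524.4 without XTH24, and 587.8 to 588.4 with a library left out; in SECs it was 724.0 and 598.8 to 849.1 with a library left out.

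The correlation of the replicate differences of the 2 groups over 18384 genes was 0.04. Because the SEC pair differed far more than the REC pair, this value cannot show whether the replicate numbers pair the samples. With the replicate number as a block, 2 members were higher in RECs (XTH6 and XTH33), 3 higher in SECs (XTH23, XTH24 and XTH30) and 3 xyloglucan and cellulose genes higher in RECs. Over all genes, 91 were higher in RECs and 400 in SECs in the main test, 714 and 1501 by DESeq2, 280 and 836 with no filter, 879 and 1688 with the length trend removed, 526 and 1161 with the block, 24 and 60 or 46 and 139 without a REC library, and 3498 and 3761 or 5490 and 4879 without a SEC library. The cause of these changes was not tested. Depth limits what can be said of members with few counts, since 3 counts are 0.192 to 0.235 CPM; XTH15, with 88 counts in SEC replicate 2, went untested because its counts lie almost wholly in 1 library.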
